A study of Homo sapiens with 6 samples.

Results

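The cytochrome P450 family is the group of haem-containing monooxygenases whose human genes carry the prefix CYP. Its members were the transcript clusters of the array table that the platform annotation ties to exactly 1 human CYP gene symbol and that were not at 0 on every array. CYP51A1, a cholesterol synthesis enzyme, and pseudogenes were left out, and 45 genes remained of the 18372 genes tested, each with 1 cluster. RNA came from HepG2, a human hepatoma cell line. The leaf-treated cells had been given 50 µg/ml of a water extract of Barringtonia racemosa leaves for 24 h, and the untreated cells were the same line without extract. Each group had 3 Affymetrix Human Gene 1.0 ST arrays, numbered here 1 to 3 as in the sample labels. The leaf-treated arrays cover a single dose and time, and the labels give no time for the untreated cells. There was no vehicle-treated group.

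P450 enzymes insert an oxygen atom into small lipophilic molecules and draw electrons from NADPH, through P450 oxidoreductase in the endoplasmic reticulum or through ferredoxins in mitochondria. Families 1 to 3 are best known in liver for the oxidation of drugs, plant compounds and pollutants, and several of these genes are induced by their own substrates through the receptors AHR, CAR and PXR. Other members have fixed roles in making or breaking down bile acids, vitamin D, retinoic acid, fatty acids and steroid hormones. Hepatoma lines such as HepG2 are known to express many of the drug-metabolising members far less than liver does.

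Of the 45 genes, 0 passed an adjusted p of 0.05 between leaf-treated and untreated cells, with adjustment over all 19291 clusters tested in limma, where 1 cluster did (0.00518%), and 3 of the 45 had an unadjusted p under 0.05, against 9.77% of all clusters. CYP24A1, the enzyme that inactivates vitamin D, had the lowest signal relative to untreated cells, with a log2 fold change of -1.26 and every leaf-treated array below every untreated array. It was the only P450 gene past the cut-offs that the series' design states (1.5 fold in either direction, together with p under 0.05 before adjustment), and its adjusted p was 0.328. In 6 genes every leaf-treated array was above every untreated array, a position held by 6.14% of all clusters, with log2 fold changes of 0.09 to 0.41 that did not pass the adjustment or the fold threshold. These were the drug enzymes CYP1A1 and CYP2F1, the fatty acid hydroxylases CYP4A22, CYP4B1 and CYP4F22, and the bile acid enzyme CYP7A1. Of them only CYP1A1 had a mean over all arrays above background, and its untreated mean was not above it. The separation of CYP1A1, CYP2F1, CYP4F22 and CYP7A1 was lost when the arrays were centred on their medians or quantile normalized. The log2 fold changes of the remaining genes lay between -0.33 and 0.29.

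The deposited values are log2 signals, so a difference of 1 is a doubling. The medians of the reported rows were 3.41 to 3.53 on the leaf-treated arrays and 3.38 to 3.42 on the untreated arrays, with leaf-treated arrays 1 and 3 at the top. Pairwise correlations between arrays, across rows, were 0.984 to 0.995. The arrays have no detection calls. The mean signals of 339 olfactory receptor genes, which liver cells are not known to use, served as a stand-in for background, and their 95th percentile was 3.28. All 17 measured hepatocyte markers, among them ALB and AFP, were above that line, and their log2 fold changes were -0.29 to 0.19. Among markers of other cell types, PTPRC of blood, CDH5 of endothelium and DCN of fibroblasts were below it, with mean signals of 2.54 to 3.16. COL1A1 of fibroblasts at 4.31 and KRT14 of squamous epithelium at 4.07 were above it. In all, 1 of 4 blood, 1 of 4 endothelial, 4 of 5 fibroblast and 2 of 3 squamous epithelial markers were above it, ACTA2 being the brightest at 6.10. The labels call the replicates biological without saying whether they were separate cultures, and the p-values therefore cover no more than the spread between these arrays. The number of arrays limits the precision. In RNA from whole cultures, fewer cells of a kind and less RNA per cell cannot be told apart.

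Mean signals were above background for 22 of the 45 P450 genes and at or below it for the other 23. The clusters above background were 4 of 11 in the drug class, 3 of 6 in the bile acid and cholesterol class, 2 of 3 in the vitamin D class, 1 of 3 in the retinoic acid class, 7 of 13 in the fatty acid class, 3 of 5 in the steroid class and 2 of 4 among little studied enzymes. Signals of different clusters depend on their probes, so no order of abundance between genes is read from them. Of the 45 genes, 21 (46.7%) held 1 value on more than 1 array, against 41.1% of all clusters tested.

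**Figure D1:**
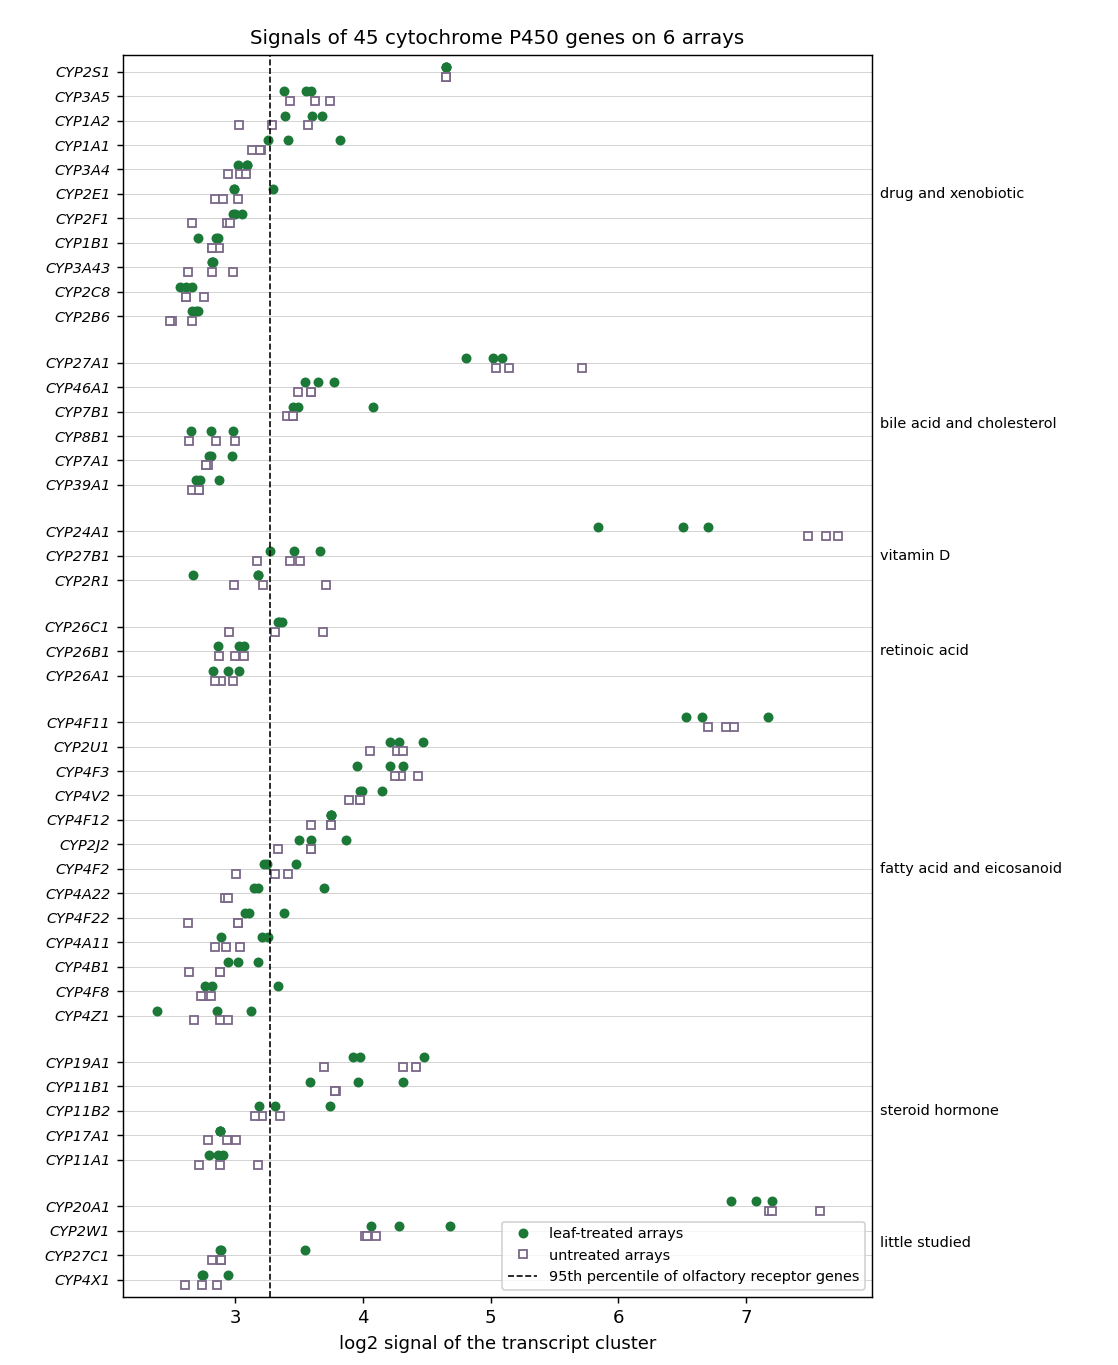
Signals of the 45 P450 genes, in log2 units, with filled circles for the 3 leaf-treated arrays and open squares for the 3 untreated arrays, grouped by class. The dashed line is the background stand-in at 3.28, and CYP24A1 is the gene whose groups stand farthest apart.

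Vitamin D is activated by 25-hydroxylation and 1-alpha-hydroxylation and inactivated by 24-hydroxylation, and a P450 enzyme carries out each of these steps. CYP24A1, the mitochondrial 24-hydroxylase, is a classic target gene of the vitamin D receptor. Its signals were 6.51, 6.70 and 5.84 on leaf-treated arrays 1, 2 and 3, against 7.72, 7.63 and 7.49 on untreated arrays 1, 2 and 3. The highest leaf-treated array was lower than the lowest untreated array, and leaf-treated array 3 was the lowest. The means were 6.35 ± 0.45 in leaf-treated cells and 7.61 ± 0.12 in untreated cells (SD, n = 3 each). Its log2 fold change of -1.26 had an SE of 0.22 and a 95% interval of -1.78 to -0.74, which is a signal 2.40 fold lower (limma, unadjusted p = 0.000855, adjusted p = 0.328). In the order of unadjusted p its cluster was number 49 of 19291. Both cut-offs were passed in the lower direction by 110 clusters (0.57%), in the higher direction by 52 (0.27%) and in either by 162 (0.84%). With every array centred on its median these counts were 208 lower and 27 higher, and CYP24A1 was past the thresholds there too, at -1.34. CYP24A1 passed them in every alternative fit, with log2 fold changes of -1.44 to -1.01 when each array was left out in turn and an adjusted p of 0.0884 to 0.824 over the alternatives.

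The activating enzymes of the class did not differ beyond their spread. CYP2R1, the main 25-hydroxylase of liver, had signals of 3.18, 3.18 and 2.67 on leaf-treated arrays, against 3.22, 3.71 and 2.99 on untreated arrays, and its mean was not above background. CYP27B1, the 1-alpha-hydroxylase, had signals of 3.46, 3.27 and 3.66 on leaf-treated arrays, against 3.51, 3.17 and 3.43 on untreated arrays. Both genes had overlapping groups, with log2 fold changes of -0.29 ± 0.22 for CYP2R1 and 0.09 ± 0.13 for CYP27B1 (SE). Of a list of 6 other genes of vitamin D synthesis, uptake and signalling, 5 were measured and 0 had an unadjusted p under 0.05 in limma, against 9.77% of all clusters in either direction. The receptor VDR itself had signals of 3.18, 3.05 and 3.22 on leaf-treated arrays, against 2.83, 3.17 and 2.81 on untreated arrays, and its mean of 3.04 was not above background. DHCR7, which turns the vitamin D precursor into cholesterol, had the highest signals of that list, at 7.04, 8.02 and 6.98 on leaf-treated arrays and 7.18, 7.01 and 6.91 on untreated arrays. Only leaf-treated array 2 lay outside the untreated range.

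**Figure D2:**
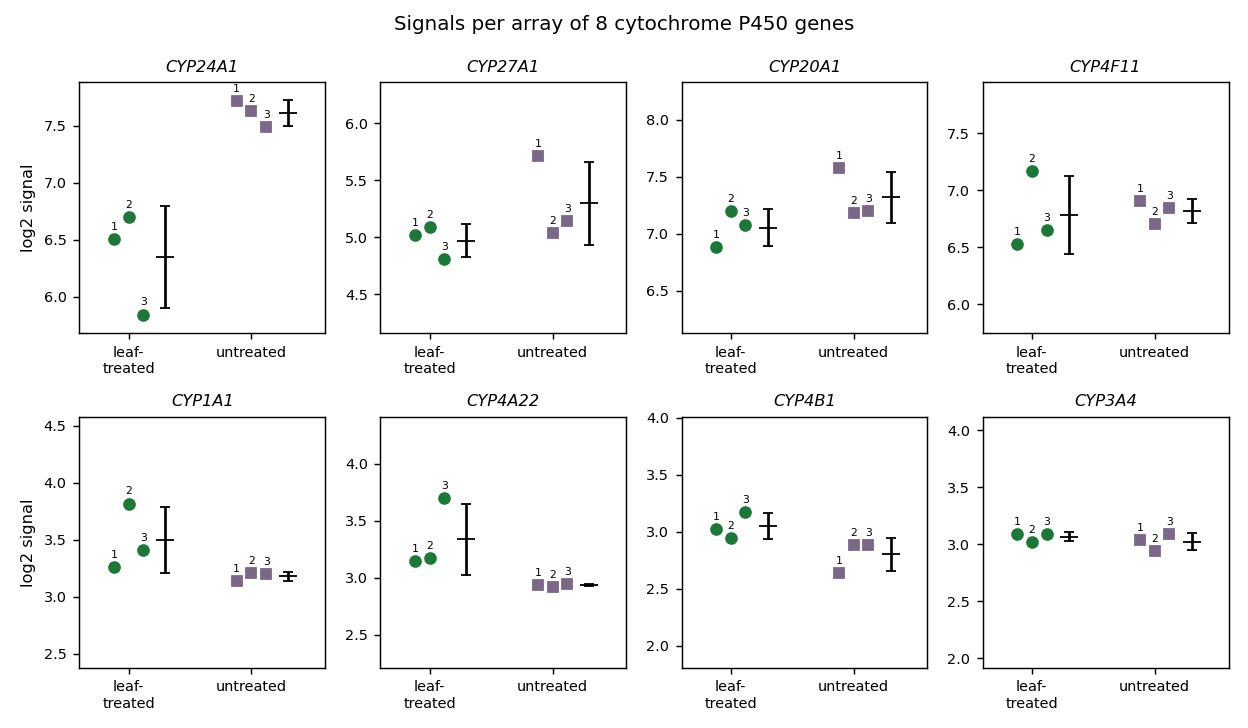
Log2 signals on each array for 8 P450 genes, with circles for leaf-treated arrays, squares for untreated arrays, replicate numbers above the symbols and the mean ± SD beside each group. All panels span the same range of log2 units. The groups do not overlap for CYP24A1, CYP1A1, CYP4A22 and CYP4B1 and overlap for CYP27A1, CYP20A1, CYP4F11 and CYP3A4.

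Among the drug and xenobiotic enzymes, CYP1A1 and CYP1A2 are the family 1 members that oxidise polycyclic aromatic compounds and caffeine and are induced through AHR, which binds DNA with ARNT at sites holding the letters GCGTG. The genes lie next to each other on chromosome 15 and are transcribed away from each other. The sequences around their starts are shown because the AHR core letters can be looked for in them, beside that of CYP4B1, a fatty acid hydroxylase described further on. Each is 300 bases from RefSeq (GRCh38.p14), 5′ to 3′ on the strand of the gene, and was searched on both strands. Capitals mark GCGTG wherever it was found. They also mark the TATA box letters, spelled TATAAA, and the hexamer AGGTCA that nuclear receptors bind. The windows are chr15:74725479-74725778 on the minus strand for CYP1A1, chr15:74748595-74748894 on the plus strand for CYP1A2 and chr1:46798796-46799095 on the plus strand for CYP4B1.
CYP1A1: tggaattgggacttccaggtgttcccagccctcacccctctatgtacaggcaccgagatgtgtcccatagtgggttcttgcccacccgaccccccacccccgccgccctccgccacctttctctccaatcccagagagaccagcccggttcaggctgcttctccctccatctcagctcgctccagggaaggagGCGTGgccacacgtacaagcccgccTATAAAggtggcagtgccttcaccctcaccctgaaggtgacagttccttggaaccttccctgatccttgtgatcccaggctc
CYP1A2: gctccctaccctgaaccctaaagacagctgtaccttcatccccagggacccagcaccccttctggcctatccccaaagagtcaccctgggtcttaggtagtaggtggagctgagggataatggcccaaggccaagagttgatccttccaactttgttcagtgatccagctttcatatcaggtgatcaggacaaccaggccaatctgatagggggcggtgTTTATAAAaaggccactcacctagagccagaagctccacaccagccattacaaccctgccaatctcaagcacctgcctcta
CYP4B1: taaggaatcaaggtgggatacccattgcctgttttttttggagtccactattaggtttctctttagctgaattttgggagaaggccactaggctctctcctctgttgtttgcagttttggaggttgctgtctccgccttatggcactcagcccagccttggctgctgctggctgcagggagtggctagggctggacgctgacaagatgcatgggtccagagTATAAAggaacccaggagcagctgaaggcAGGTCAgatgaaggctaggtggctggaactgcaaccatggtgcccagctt

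The CYP1A1 window held GCGTG 57 to 53 bases before the start and TATAAA 32 to 27 bases before it. The CYP1A2 window held TATAAA 29 to 24 bases before the start, overlapping the same letters on the other strand, and no GCGTG. In CYP4B1, TATAAA lay 29 to 24 bases before the start and AGGTCA began at the start itself. Windows were held for 32 of the 45 genes, and among their 45 windows GCGTG was in 11 (24.4%), TATAAA in 13 (28.9%) and AGGTCA in 12 (26.7%). Over all 35116 promoter windows of that length the shares were 36.5%, 11.5% and 13.8%. These are matches of letters and not measured binding sites, and the best-known AHR sites of CYP1A1 lie farther upstream than this window.

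CYP1A1 had signals of 3.26, 3.82 and 3.41 on leaf-treated arrays 1, 2 and 3, against 3.14, 3.21 and 3.20 on untreated arrays 1, 2 and 3. The groups did not overlap, and leaf-treated array 2 was the highest. The means were 3.50 ± 0.29 in leaf-treated cells and 3.18 ± 0.04 in untreated cells (SD, n = 3 each), and only the leaf-treated mean was above background. The log2 fold change was 0.32 with a 95% interval of -0.03 to 0.66, and the gene did not pass the test (limma, unadjusted p = 0.0643, adjusted p = 0.513). With every array centred on its median, the CYP1A1 groups overlapped. The separation was also lost after quantile normalization. Leaf-treated array 2 alone stood 0.64 above the untreated mean, against 0.08 and 0.24 for leaf-treated arrays 1 and 3.

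CYP1A2 had signals of 3.39, 3.60 and 3.68 on leaf-treated arrays, against 3.03, 3.57 and 3.29 on untreated arrays. The groups overlapped at untreated array 2, and the log2 fold change was 0.27 ± 0.15 (SE). CYP1B1, the family 1 member expressed mainly outside liver, was not above background, with signals of 2.87, 2.71 and 2.85 on leaf-treated arrays and 2.82, 2.88 and 2.82 on untreated arrays. CYP3A4, which oxidises more marketed drugs than any other P450 and is induced through PXR, had signals of 3.09, 3.02 and 3.09 on leaf-treated arrays, against 3.04, 2.94 and 3.09 on untreated arrays. All 6 of its values lay below the background line and the groups overlapped, with a log2 fold change of 0.04 and a 95% interval of -0.12 to 0.21. No difference in CYP3A4 was detected, and whether its low signal hid one was not tested.

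CYP3A5 and CYP2S1 were the other clusters of the class above background. CYP3A5, the sister enzyme of CYP3A4, had a log2 fold change of -0.09 with signals of 3.38 to 3.59 on leaf-treated arrays and 3.43 to 3.75 on untreated arrays. CYP2S1, an extrahepatic enzyme, was the class's cluster of highest mean signal and read 4.65 on all 6 arrays. A cluster with 1 value on every array holds no information on a difference, and 27 of all clusters tested were of this kind. CYP2F1, an enzyme of lung, was below background with signals of 3.058, 2.982 and 3.003 on leaf-treated arrays and 2.93, 2.66 and 2.96 on untreated arrays, which did not overlap. The log2 fold changes of CYP2B6, a CAR target, and the ethanol-oxidising CYP2E1 were 0.14 and 0.17. CYP3A43 and CYP2C8 were within 0.05 of 0. None of these 5 genes was above background or had an unadjusted p under 0.05.

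AHR, its partner and its other target genes were described from a list of 9. AHR had signals of 6.40, 6.69 and 6.64 on leaf-treated arrays, against 6.69, 6.50 and 6.69 on untreated arrays, which overlapped. Of the 6 measured genes of that list, all above background, 3 had an unadjusted p under 0.05 in limma, each lower in leaf-treated cells. That position was held by 5.9% of all clusters and by 1042 of the 12273 genes above background. Of the list, 0 were past the fold threshold or the adjustment. The list was chosen with earlier results of these data known, so its share is a description only. NFE2L2, which encodes the antioxidant regulator NRF2, had signals of 8.63, 8.74 and 8.73 on leaf-treated arrays, against 9.22, 9.04 and 9.21 on untreated arrays. Its groups did not overlap, and the log2 fold change was -0.45 ± 0.08 (SE, adjusted p = 0.328 from limma). NQO1, a quinone reductase that AHR and NRF2 both induce, had signals of 9.08, 9.27 and 9.11 on leaf-treated arrays, against 9.43, 9.31 and 9.38 on untreated arrays. These did not overlap either, with a log2 fold change of -0.22 (adjusted p = 0.506 from limma). TIPARP, a feedback inhibitor of AHR, had a log2 fold change of -0.24 with overlapping groups.

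P450 enzymes need electron donors and haem to work. Of a list of 12 genes for these, 10 were measured, all above background, and 0 had an unadjusted p under 0.05 in limma, against 9.77% of all clusters. POR, the P450 oxidoreductase, had signals of 4.13, 4.15 and 3.80 on leaf-treated arrays, against 4.37, 4.15 and 4.19 on untreated arrays. Leaf-treated array 2 and untreated array 2 held the same value, so the groups touched, and the log2 fold change was -0.21 ± 0.12 (SE). CYB5A, the cytochrome b5 that assists several P450 reactions, had the smallest unadjusted p of the list, with 7.80, 8.31 and 8.06 on leaf-treated arrays, against 8.54, 8.22 and 8.44 on untreated arrays. Only leaf-treated array 2 lay within the untreated range. CYB5B, the mitochondrial outer membrane form, had a log2 fold change of 0.04.

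CYP27A1 is the mitochondrial sterol 27-hydroxylase that opens the alternative route of bile acid synthesis and can also hydroxylate vitamin D. Its signals were 5.02, 5.09 and 4.81 on leaf-treated arrays, against 5.71, 5.04 and 5.14 on untreated arrays. The groups overlapped, and untreated array 1 stood above the others. The log2 fold change was -0.33 with a 95% interval of -0.77 to 0.12 (limma, unadjusted p = 0.126, adjusted p = 0.555). CYP7A1, the rate-limiting enzyme of the classic route, had signals of 2.98, 2.80 and 2.81 on leaf-treated arrays, against 2.77, 2.79 and 2.77 on untreated arrays. These did not overlap by a margin of under 0.01, lay below background throughout and gave a log2 fold change of 0.09.

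The remaining members of the class had overlapping groups. CYP7B1, the oxysterol 7-alpha-hydroxylase, had signals of 3.49, 3.45 and 4.08 on leaf-treated arrays and 3.45, 3.41 and 3.45 on untreated arrays, and leaf-treated array 3 was the highest. CYP46A1, the cholesterol 24-hydroxylase of brain, had a log2 fold change of 0.09. CYP8B1, which directs synthesis to cholic acid, and CYP39A1, a 24-hydroxycholesterol 7-alpha-hydroxylase, were below background with log2 fold changes of -0.01 and 0.07. Of 11 measured genes of a list of 14 beside these, 0 had an unadjusted p under 0.05, against 9.77% of all clusters. HSD17B4, the peroxisomal enzyme of side chain shortening, had the smallest, at 0.0692 in limma, with signals of 8.96, 9.42 and 9.34 on leaf-treated arrays and 9.62, 9.41 and 9.58 on untreated arrays.

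Among 14 measured receptors and regulators of P450 genes, of 18 listed, NR0B2 was the only gene with an unadjusted p under 0.05 in limma, against 3.87% of all clusters in the higher direction. NR0B2 encodes SHP, which bile acids induce through FXR and which represses CYP7A1. Its signals were 6.19, 6.69 and 6.26 on leaf-treated arrays, against 6.06, 5.78 and 5.98 on untreated arrays. The groups did not overlap, and the log2 fold change was 0.44 ± 0.15 (SE), under the fold threshold and with an adjusted p of 0.4996 from limma. THRB, a thyroid hormone receptor, had the highest mean signal of the list and a log2 fold change of -0.13. NR1I2, which encodes PXR, is not analysed here.

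The fatty acid and eicosanoid class is made up mainly of family 4, whose enzymes hydroxylate the end of fatty acid chains. CYP4A22, an omega-hydroxylase close in sequence to CYP4A11, had signals of 3.14, 3.18 and 3.70 on leaf-treated arrays 1, 2 and 3, against 2.94, 2.92 and 2.94 on untreated arrays. The groups did not overlap, and leaf-treated array 3 alone was above the background line. The means were 3.34 ± 0.31 in leaf-treated cells and 2.93 ± 0.01 in untreated cells (SD, n = 3 each). The log2 fold change of 0.41 had a 95% interval of 0.04 to 0.77 (limma, unadjusted p = 0.0339, adjusted p = 0.507). Probes may not separate CYP4A22 from CYP4A11, whose signals were 3.26, 2.89 and 3.21 on leaf-treated arrays and 3.04, 2.93 and 2.84 on untreated arrays and overlapped.

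CYP4B1, which hydroxylates shorter chains and small aromatic compounds, had signals of 3.02, 2.95 and 3.18 on leaf-treated arrays, against 2.64, 2.88 and 2.88 on untreated arrays. The groups did not overlap, all 6 values were below background, and the value on untreated arrays 2 and 3 occurs 300 times in the table. The log2 fold change was 0.25 with a 95% interval of 0.01 to 0.49 (limma, unadjusted p = 0.0455, adjusted p = 0.507). CYP4F22, an omega-hydroxylase of skin ceramide synthesis, had signals of 3.08, 3.38 and 3.11 on leaf-treated arrays, against 2.63, 3.02 and 3.02 on untreated arrays. These groups did not overlap either, its mean was below background, and the log2 fold change was 0.30.

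CYP4F11, an omega-hydroxylase of long-chain fatty acids and vitamin K, was the class's cluster of highest mean signal. Its signals were 6.53, 7.17 and 6.65 on leaf-treated arrays, against 6.91, 6.70 and 6.84 on untreated arrays. Leaf-treated array 2 was above every untreated array and leaf-treated arrays 1 and 3 were below every untreated array, so the log2 fold change of -0.03 averages opposite displacements. CYP4F3 and CYP2U1, both above background, had log2 fold changes of -0.16 and 0.11. CYP4V2, CYP4F12, CYP2J2 and CYP4F2 were also above background, at 0.05 to 0.15, and CYP4F12 read 3.75 on 5 of the 6 arrays. The dim clusters of CYP4F8 and CYP4Z1 had log2 fold changes of 0.20 and -0.04 with overlapping groups.

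Steroid hormone enzymes are mainly made in adrenal and gonad. CYP19A1, the aromatase that makes estrogens, was the class's cluster of highest mean signal, with 3.92, 4.48 and 3.98 on leaf-treated arrays and 3.70, 4.42 and 4.32 on untreated arrays. The groups overlapped, and the array numbered 2 was the highest in both. CYP11B2, the aldosterone synthase, had the smallest unadjusted p of the class, at 0.288 in limma, with signals of 3.74, 3.19 and 3.31 on leaf-treated arrays and 3.21, 3.35 and 3.16 on untreated arrays. CYP11B1, the cortisol-forming 11-beta-hydroxylase and a close relative of CYP11B2, had 4.31, 3.58 and 3.96 on leaf-treated arrays and 3.79, 3.78 and 3.78 on untreated arrays. Its leaf-treated values spread on both sides of the untreated ones. CYP17A1 and CYP11A1, which act early in steroid synthesis, were below background at -0.03 and -0.07.

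The retinoic acid hydroxylases CYP26A1, CYP26B1 and CYP26C1, which clear retinoic acid, had log2 fold changes of 0.01 to 0.03. CYP26C1, above background on its mean, had signals of 3.33, 3.34 and 3.37 on leaf-treated arrays and 2.95, 3.31 and 3.68 on untreated arrays. CYP26A1, with the smallest unadjusted p of the class (0.743 in limma), had 2.94, 2.83 and 3.03 on leaf-treated arrays and 2.89, 2.85 and 2.98 on untreated arrays. The groups overlapped in both genes and in CYP26B1.

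Of the little studied members, CYP20A1, an enzyme with no settled substrate, was well above background. Its signals were 6.88, 7.20 and 7.08 on leaf-treated arrays, against 7.58, 7.18 and 7.20 on untreated arrays. Leaf-treated array 2 reached the untreated range, untreated array 1 stood above the others, and the log2 fold change was -0.27 ± 0.14 (SE, unadjusted p = 0.0959 from limma). CYP2W1, an enzyme known from tumours, had 4.28, 4.07 and 4.68 on leaf-treated arrays and 4.01, 4.10 and 4.04 on untreated arrays, with a log2 fold change of 0.29. Only leaf-treated array 2 fell within the untreated range. CYP27C1, a retinoid desaturase, had log2 fold change 0.24 through leaf-treated array 1 alone, at 3.55, and CYP4X1 had one of 0.07, and neither was above background.

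**Figure D3:**
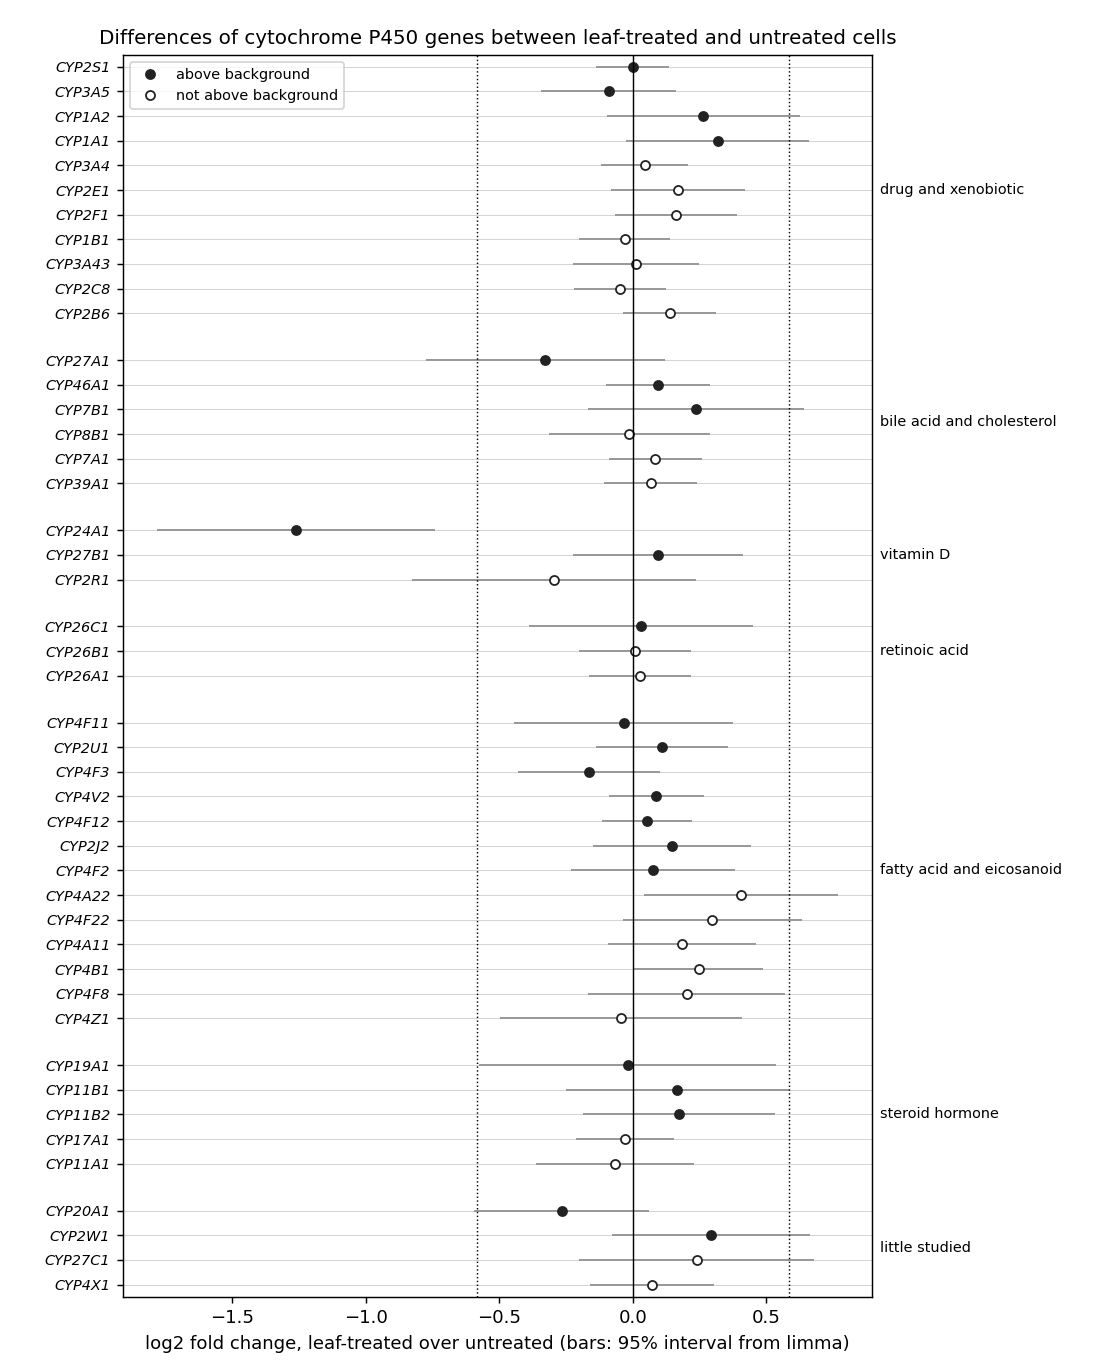
Log2 fold changes of the 45 P450 genes, leaf-treated over untreated, with 95% intervals from limma, by class. Filled circles are genes above background and open circles genes not above it, the dotted lines mark a change of 1.5 fold in either direction, and CYP24A1 alone lies beyond them.

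Over the whole family, 3 of 45 genes had an unadjusted p under 0.05 in limma, CYP4A22 and CYP4B1 higher and CYP24A1 lower, against 9.77% of all clusters in either direction, 3.87% higher and 5.9% lower. The groups did not overlap for 7 genes (15.6%), against 13.5% of all clusters. These were CYP1A1, CYP2F1, CYP4A22, CYP4B1, CYP4F22 and CYP7A1, higher in leaf-treated cells, where 6.14% of all clusters were in that position, and CYP24A1, lower, where 7.41% were. Of the 6 higher genes, 5 were not above background, and the untreated mean of CYP1A1 was not above it either. With every array centred on its median, 2 of the 6 remained apart, CYP4A22 and CYP4B1, and CYP1B1 stood apart in the lower direction with CYP24A1.

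Log2 fold changes were positive for 30 genes, negative for 14 and 0 for CYP2S1, and 36 of the 45 lay within 0.25 of 0. The median was 0.07, against 0.01 over all genes tested. The P450 median was -0.00428 when every array was centred on its median, with 21 genes positive and 24 negative. Centring moves the log2 fold change of every gene by the same amount, as in CYP2S1 from 0 to -0.077. It therefore leaves the distance between the P450 median and that of all genes unchanged. The share of positive values was 66.7% in the P450 family and 66.4% among the olfactory receptor genes, whose median was 0.05. It was 46.4% over all genes above background and 66.8% over all genes not above it. Split in the same way, 63.6% of the 22 P450 genes above background and 69.6% of the 23 others were positive. The split uses the mean over all 6 arrays, so it is not independent of the differences. CYP1A1, CYP11B2 and CYP4F2 were above background with untreated means of 3.18, 3.24 and 3.24, under the line. CYP2R1, with an untreated mean of 3.30, and CYP4A22, with a leaf-treated mean of 3.34, were not above background. The median of the P450 genes above background was 0.08, against -0.02 over all genes above background. After centring the P450 value was 0.005, and the value over all genes above background moved by the same amount. On leaf-treated arrays 1, 2 and 3 the median P450 gene stood 0.05, 0.01 and 0.03 above its untreated mean, and the median olfactory receptor gene stood at 0.05, -0.01 and 0.05. The share of these array-wide differences in the P450 values was not tested.

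**Figure D4:**
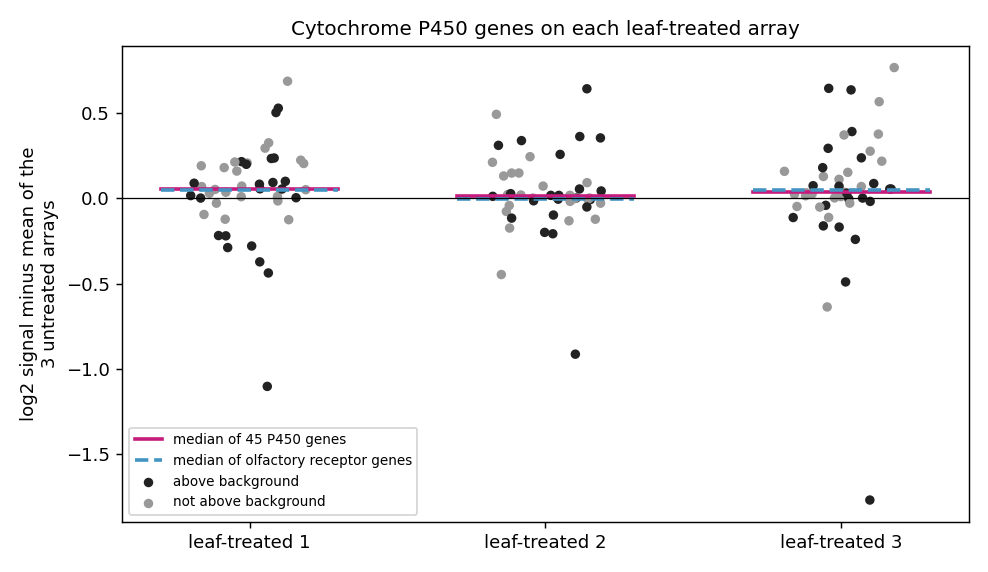
Log2 signal of each P450 gene minus its mean over the 3 untreated arrays, on leaf-treated arrays 1, 2 and 3, in black for genes above background and grey for the others. The solid line is the median of the 45 genes and the dashed line that of the olfactory receptor genes, and both lie close to 0 on every array, while CYP24A1 is the lowest point on each.

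By class, the median log2 fold change was 0.04 for the drug enzymes, 0.08 for bile acid and cholesterol, -0.29 for vitamin D, 0.03 for retinoic acid, 0.11 for fatty acid and eicosanoid, -0.02 for steroid hormone and 0.16 for the little studied enzymes. After centring, these were -0.03 for drug enzymes, -5.7e-05 for bile acid and cholesterol, -0.05 for retinoic acid, -0.10 for steroid hormone, -0.37 for vitamin D, 0.03 for fatty acid and eicosanoid and 0.08 for the little studied enzymes. Before and after centring, the vitamin D median was the value of CYP2R1, the middle of 3 genes. The mean of CYP2R1 was not above background and its groups overlapped. No class other than vitamin D held a gene past the cut-offs of the series' design. Displacements did not fall on a single array, since 18, 13 and 17 of the 45 genes were farthest from their untreated mean on leaf-treated arrays 1, 2 and 3, with ties counted on each array.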

How the data were processed

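The 3 leaf-treated and 3 untreated RNA samples from HepG2 cells were measured on Affymetrix arrays. The values deposited by the authors are log2 signals per transcript cluster. GCOS, Partek and RMA are named, with no version, in the submitters' processing notes. RMA corrects background, normalizes and summarises probes, with settings not given in the sources used here. The paper given with the series does not report these arrays.

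Of 33297 rows, 4468 were 0 on every array and were left out, 7803 had no symbol and 1735 several. The 19291 rows with 1 symbol were tested with limma 3.58.1 (R 4.3.3, lmFit and eBayes, no covariate), with Benjamini-Hochberg adjustment over all of them. Symbols came from the platform annotation, 19260 of them matched to RefSeq. The highest-mean cluster stood for a gene. P450 members and gene lists were chosen with earlier results of these data known. Named with values on every array were members past the thresholds, the smallest p and highest mean of each class or list, and CYP1A1, CYP3A4, CYP7A1, CYP24A1, POR, AHR, VDR and NR0B2. Other members are described so that all are accounted for. The fit was tested on simulated data. Alternatives were quantile normalization, median centring, a filter on dim clusters, a robust trend, array weights, the methods' analysis of variance, all rows, averaged clusters, a block on replicate number, and every array left out in turn. A fit with leaf-treated array 2 as the only treated array was added after seeing the data.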

Additional observations from a re-analysis of the deposited data

How the results depend on the processing

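CYP24A1 was the only P450 gene past the cut-offs of the series' design in every alternative that kept at least 2 leaf-treated arrays, and 0 P450 genes passed the adjustment in any. Of the 45 genes, 25 kept their sign in all of these fits, 19 changed it in at least 1, and CYP2S1 had no difference as deposited. The median log2 fold change of the P450 genes, 0.07 as deposited, was 0.0297 after quantile normalization, -0.00428 after centring, and 0.0337 to 0.0802 when each array was left out. The number of P450 genes above background, 22, was 23 with the 90th percentile of olfactory receptor genes.

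Over all clusters, the 1 call after adjustment became 8 with quantile normalization, 3 with centring, 4 without dim clusters, 2 with the robust trend, 3 with array weights, 0 with the analysis of variance, 2 with all rows and 2 with averaged clusters. It was 0 to 0 when each array was left out. Clusters past the design's cut-offs, 52 higher and 110 lower, were 27 higher and 208 lower with centring, 82 higher with array weights, 33 higher and 68 lower with the analysis of variance, and 88 higher with all rows. Leaving out each array gave 41 to 167 higher and 68 to 323 lower, with the highest counts without leaf-treated array 2. The causes were not tested.

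A comparison with leaf-treated array 2 as the only treated array was added after seeing the data. That arm has no spread of its own, and its p-values assume that it varies like the untreated arrays, so its counts are not comparable with those above and carry no weight. It gave 2 P450 genes past the cut-offs (CYP24A1 and CYP1A1, which is highest on that array), 0 calls, 140 clusters higher and 55 lower, and a P450 median of 0.0101. Log2 fold changes were positive for 24 P450 genes and negative for 20 there, against 30 and 14 in the main fit. CYP11B1 at -0.20, CYP4F11 at 0.35 and CYP19A1 at 0.34 were among the genes of opposite sign.

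With the replicate number as a block the calls over all clusters were 0, and CYP24A1 had an adjusted p of 0.506 (limma). Arrays of the same number correlated at -0.115, -0.177 and 0.121 in their deviations from the group means, and arrays of different numbers at -0.188 to 0.271. With 3 arrays per group, these values cannot decide whether the samples were set up in pairs. The number of arrays and signals near background limit what could be detected.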

Other observations

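P450 rows that the annotation ties to several symbols or to a pseudogene entered no comparison above. The row shared by CYP2D6, a main drug-oxidising enzyme, and LOC101929829 had log2 signals of 4.56, 4.26 and 4.77 on leaf-treated arrays, against 3.48, 4.62 and 4.06 on untreated arrays, which overlap. The pseudogene CYP2D7 had 3.40, 4.07 and 3.70 on leaf-treated arrays, against 3.31, 3.27 and 3.41 on untreated arrays, and these overlap by 0.01. The row shared by CYP3A7, the fetal liver form of CYP3A, and its readthrough had 2.99, 2.83 and 2.94 on leaf-treated arrays and 2.91, 2.68 and 2.91 on untreated arrays. The steroid 21-hydroxylase CYP21A2 and its pseudogene share 3 rows with identical values, 3.44, 3.23 and 3.31 on leaf-treated arrays and 3.25, 3.07 and 3.22 on untreated arrays. The CYP2A6, CYP2A7 and CYP2A13 rows lay between 2.87 and 3.38 on all arrays.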
